A study of Mus musculus domesticus with 6 samples.

Results

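The genes described are 10 members of the tetraspanin family, measured in BFU-E (burst-forming units, erythroid), early progenitors of red blood cells, from mouse fetal liver. They were Cd81, Cd9, Cd63, Cd82, Cd151, Cd37, Cd53, Tspan3, Tspan14 and Tspan33, found by symbol among 55359 gene entries, and all 10 were matched. The 10 were chosen by family and by name, with the expression values of these same 6 libraries in view. In those Cd81 was among the genes that passed the test, so its difference is a description here and no independent evidence. RNA was sequenced from 3 libraries of Exosc3 fl/fl Cre+ embryos (called Cre-positive) and 3 libraries of Exosc3 fl/fl Cre- embryos (called Cre-negative), all at E14.5. Both groups carry floxed alleles of Exosc3, a subunit of the RNA exosome that trims and degrades RNA, and the Cre transgene is Vav1-Cre, which acts throughout the blood lineage and not in BFU-E alone. The labels describe one sort for all 6 samples, of GFP-positive, lineage-negative, Kit-positive cells low in CD24 and CD71, without saying how cells of Cre-negative embryos met the GFP gate. Each of 3 litters gave 2 of the 6 samples.

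Tetraspanins are small membrane proteins with a short and a large extracellular loop. They carry no enzyme activity of their own, and assemble with integrins, growth factor receptors and each other into patches of the membrane that hold signalling partners together. Some travel to late endosomes and leave cells on secreted vesicles, and one subgroup, called TspanC8, escorts the protease ADAM10 to the cell surface, where it cuts Notch receptors. On blood progenitors Cd81, Cd9, Cd63 and Cd82 are surface proteins, Cd37 and Cd53 are largely restricted to blood cells, and Tspan33 was described in mouse erythroid progenitors under the name Penumbra.

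The feature that joins the family is a run of cysteine, cysteine and glycine in the large loop, and the coding sequence of that run is shown for 5 of the 10 genes, because their levels or transcripts separated the groups most or were the lowest. A script searched each gene's main coding sequence in GENCODE M21, in frame and on the coding strand, for a pair of cysteine codons (TGC or TGT) followed by a glycine codon (GGN). Each line gives 33 bases, 5′ to 3′, with the run in capitals.
Cd81: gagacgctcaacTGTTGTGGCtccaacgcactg
Tspan33: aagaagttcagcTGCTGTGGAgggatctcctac
Cd151: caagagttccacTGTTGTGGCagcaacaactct
Cd63: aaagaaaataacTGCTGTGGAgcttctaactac
Cd53: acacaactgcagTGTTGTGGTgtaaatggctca
All 10 genes held the run once between codons 100 and 200, and so did 30 of the 31 matched tetraspanins. Of 21571 mouse coding genes 2.55% held it anywhere, and of the 2023 with coding lengths between 657 and 849 bases, the range of the 10 genes, 3.71% did. Cd81 and Cd151 used the same 9 bases, as did Tspan33 and Cd63.

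The libraries held between 89629949 and 124931215 expected counts. Exosc3 itself stood at 26.8, 22.1 and 30.2 CPM (a count divided by its library's TMM-adjusted size) in Cre-positive libraries, against 51.9, 44.3 and 48.0 CPM in Cre-negative libraries. Its log2 fold change was -0.87 ± 0.22 (SE), and it did not pass over all genes (edgeR adjusted p = 0.259). DESeq2, which called 3.50% of the genes it tested (1.68% lower), called Exosc3 lower (DESeq2 adjusted p = 0.00325). The CPM of Exosc3 sums the whole gene, floxed exons or not. All 14 erythroid markers were detected, led by Zfpm1 and Kit. They summed to between 2667 and 3148 CPM in Cre-positive libraries and between 2292 and 2680 CPM in Cre-negative libraries. Of these, 1 passed by edgeR, higher, where 0.122% of all tested genes did. It was Car2, at 538, 502.5 and 408 CPM in Cre-positive libraries, against 239, 236 and 205 CPM in Cre-negative libraries. Its log2 fold change was 1.09 ± 0.12 (SE, edgeR adjusted p = 0.00787). Groups did not overlap for 4 markers with Cre-positive above and for 1 with it below, where 7.53% and 7.66% of all tested genes did not. Markers of neutrophils and monocytes (11 genes, led by Mpo and Spi1, with Ly6c2 at 0) summed to between 232 and 520.0 CPM in Cre-positive libraries and between 576 and 1506 CPM in Cre-negative libraries. Lymphoid markers (10 genes, led by Ighm and Rag1, with Cd3e and Dntt at 0) summed to between 3.30 and 10.6 CPM in Cre-positive libraries and between 38.4 and 129.9 CPM in Cre-negative libraries. Megakaryocyte markers (10 genes, led by Itga2b, with Ppbp and Gp6 at 0) summed to between 62.5 and 105 CPM in Cre-positive libraries and between 54.7 and 93.8 CPM in Cre-negative libraries. Markers of mast cells, basophils and eosinophils, of macrophages and of hepatocytes summed to no more than 9.46 CPM in any library, with 5 of 9, 6 of 8 and 5 of 8 genes at 0, and were led by Cpa3 and Ms4a2, by C1qb and Mrc1, and by Trf and Alb. Endothelial and stromal markers (10 genes, led by Pecam1 and Dlk1, with 3 at 0) summed to between 21.3 and 45.9 CPM in Cre-positive and between 36.0 and 75.9 CPM in Cre-negative libraries. Where just 1 of the 6 libraries detected a gene, the median count was 108 reads, so totals of that order can rest on a few captured molecules.

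Cd81 was the most abundant tetraspanin in both groups. On the TPM scale, which divides by transcript length and so allows genes to be compared, it reached 221, 336 and 301 TPM in the Cre-positive libraries 1, 2 and 3, against 153, 95.6 and 114 TPM in the Cre-negative libraries 1, 2 and 3. No other of the 10 genes overlapped it in either group. Cd81 made up 45.3% ± 6.67 of the summed TPM of all 31 matched tetraspanins in Cre-positive libraries and 27.0% ± 4.27 in Cre-negative libraries (SD, n = 3 each). The 10 genes together made up between 67.5% and 74.5% of that sum in Cre-positive libraries and between 59.3% and 65.5% in Cre-negative libraries. With Cd81 left out, the other 9 summed to 175, 164 and 153 TPM in Cre-positive libraries and to 148, 149.7 and 172 TPM in Cre-negative libraries, and these ranges overlapped.

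**Figure D1:**
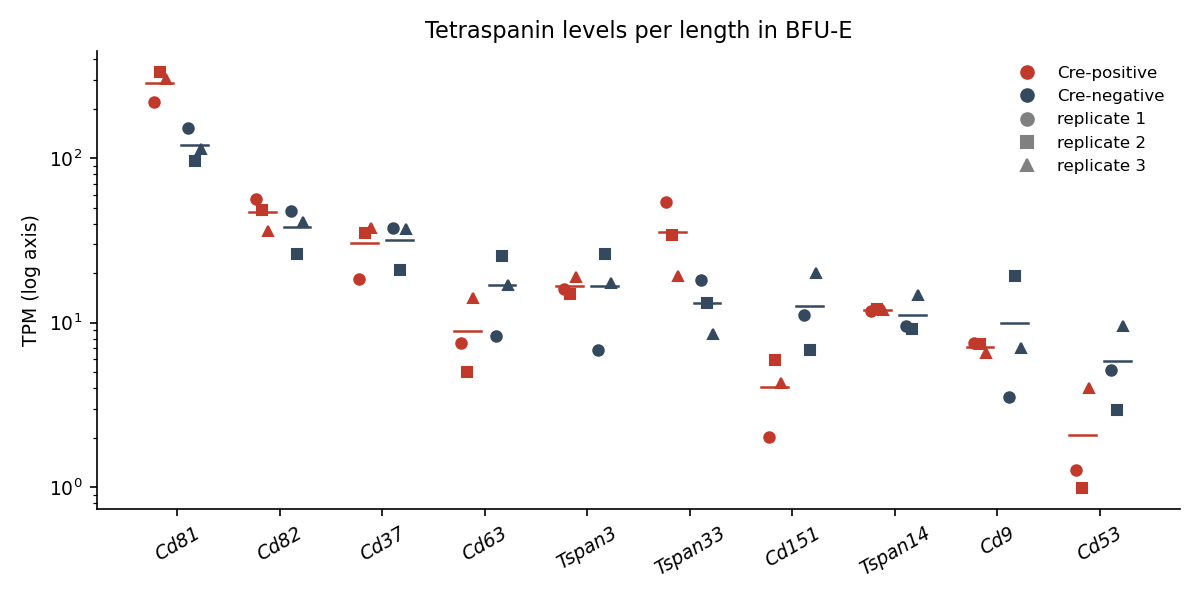
TPM (log axis) of the 10 tetraspanins in each library, ordered by their mean in Cre-negative libraries, with a bar at each group's mean and a marker shape for each replicate number. Cd81 lies above every other gene in both groups, and Cd53 has the lowest mean in both.

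Below Cd81 the levels of the other named tetraspanins formed a graded series. Among all matched tetraspanins Cd82 ranked 3 by mean TPM in both groups. Between Cd81 and Cd82 lay Tspan32 (53.3) in Cre-positive and Tspan13 (42.2) in Cre-negative libraries, each with values that overlapped those of Cd82. In Cre-positive libraries the order of mean TPM was Cd82 (46.9 ± 9.98), Tspan33 (35.7 ± 17.6), Cd37 (30.3 ± 10.4), Tspan3 (16.7 ± 2.11), Tspan14 (11.9 ± 0.150), Cd63 (8.86 ± 4.71), Cd9 (7.11 ± 0.534), Cd151 (4.08 ± 1.97) and Cd53 (2.08 ± 1.66) (SD, n = 3). Neighbours in this order overlapped, except Tspan3 with Tspan14 and Cd9 with Cd151. In Cre-negative libraries the order was Cd82 (38.2 ± 11.1), Cd37 (31.8 ± 9.44), Cd63 (16.8 ± 8.61), Tspan3 (16.8 ± 9.66), Tspan33 (13.2 ± 4.78), Cd151 (12.6 ± 6.69), Tspan14 (11.1 ± 3.09), Cd9 (9.92 ± 8.25) and Cd53 (5.85 ± 3.32) TPM, and every pair of neighbours from Cd82 down overlapped. Tspan33 ranked above Cd37 in Cre-positive libraries and below both Cd63 and Tspan3 in Cre-negative libraries, in each case with overlapping values.

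Cre-positive BFU-E were set against Cre-negative BFU-E to ask which transcripts differ where Exosc3 is targeted. Among the 10 tetraspanins, Cd81 was higher in Cre-positive BFU-E, about doubled, and was the 1 gene that passed. Tspan33 was higher by a larger ratio but varied more between libraries and did not pass. Its level fell from replicate 1 to replicate 3 in both groups. Cd63 and Cd53 had the lowest ratios, from few reads, and the other 6 had log2 fold changes between -0.32 and 0.21. Over all 13117 genes tested, 0.122% passed at an adjusted p under 0.05, all of them higher (16 genes). In these bulk samples fewer cells of a type and less RNA per cell cannot be told apart.

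Cd81 is best known on B cells, and it binds the immunoglobulin-like protein Igsf8. In Cre-positive libraries its level was 120.1, 131 and 132 CPM, against 63.8, 51.5 and 63.4 CPM in Cre-negative libraries. All 3 Cre-positive libraries lay above all 3 Cre-negative libraries, and the 3 within each group lay close together. The means were 128 ± 6.48 CPM in Cre-positive and 59.6 ± 6.99 CPM in Cre-negative libraries (SD, n = 3 each), a 2.14-fold difference. The log2 fold change was 1.10 ± 0.14 (SE), with a 95% interval of 0.78 to 1.42 (edgeR adjusted p = 0.0223). The call was lost without any 1 of the 6 libraries (edgeR adjusted p between 0.0645 and 0.159, with the log2 fold change between 1.00 and 1.15). It was also lost with effective-length offsets (log2 fold change 1.28, edgeR adjusted p = 0.269) and on log2(TPM + 1) (1.24, limma adjusted p = 0.217), while DESeq2 and limma-voom called it (adjusted p = 2.3e-12 and 0.0142). A non-coding gene on the opposite strand that overlaps Cd81, R74862, had 169, 333 and 964 reads in Cre-positive libraries and 0, 98 and 0 reads in Cre-negative libraries, against at least 5397 reads of Cd81 in every library. The strand setting of the counting is not given in the sources used here, so reads of these 2 genes may not be fully separated.

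**Figure D2:**
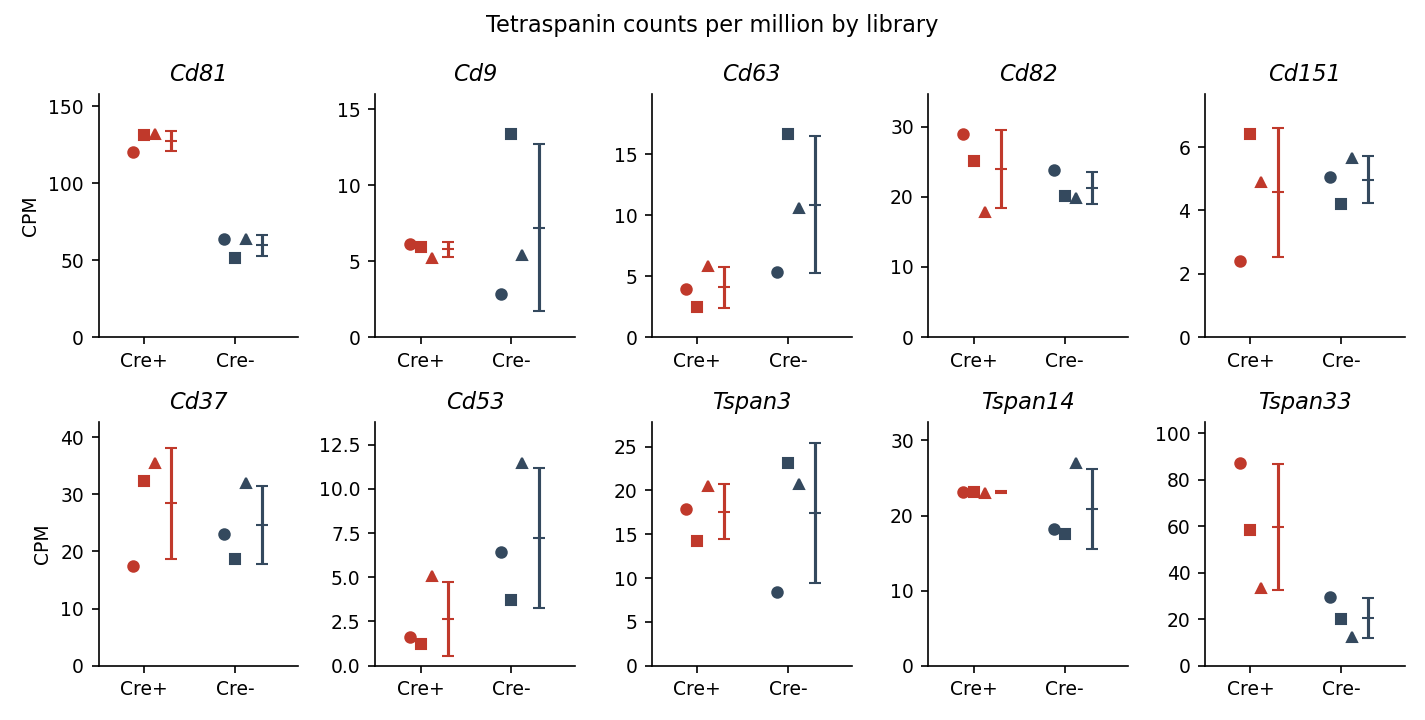
CPM of each of the 10 tetraspanins in the Cre-positive (red, left) and Cre-negative (dark, right) libraries, on axes that start at 0, with the mean and SD over 3 libraries beside the points and a marker shape for each replicate number. The groups do not overlap for Cd81 and Tspan33, and overlap for the other 8.

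Tspan33 and Tspan14 belong to the TspanC8 subgroup that escorts ADAM10. Tspan33 stood at 87.3, 58.5 and 33.2 CPM in Cre-positive libraries, against 29.5, 20.2 and 12.2 CPM in Cre-negative libraries. All 3 Cre-positive libraries lay above all 3 Cre-negative ones, but the lowest Cre-positive library lay little above the highest Cre-negative one, and each group spanned more than a doubling. The means of 59.7 ± 27.1 and 20.6 ± 8.67 CPM (SD, n = 3 each) gave a 2.89-fold difference, and the log2 fold change was 1.53 ± 0.40 (SE), with a 95% interval of 0.63 to 2.44. It did not pass over all genes (edgeR adjusted p = 0.278), and DESeq2, which called 3.50% of the genes it tested (1.81% higher and 1.68% lower), called it (adjusted p = 0.000533). It also passed with the replicate number as a block (log2 fold change 1.52 ± 0.22, SE, edgeR adjusted p = 0.0257), although the numbers were not taken to pair the libraries. Over the alternatives its log2 fold change stayed between 1.15 and 1.88. Tspan14 was close to even in the Cre-positive libraries, at 23.1, 23.2 and 22.9 CPM, and spread more widely in the Cre-negative libraries, at 18.2, 17.5 and 27.1 CPM. Its log2 fold change of 0.14 had a 95% interval of -0.52 to 0.80, which spans differences of either sign.

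Of 9 genes of the ADAM10 and Notch cleavage route, 0 passed by edgeR, DESeq2 or limma-voom, and 1 had an unadjusted p under 0.05 by edgeR, where 8.23% of all tested genes did. That gene was Notch1, a receptor that ADAM10 cuts, at 35.7, 38.1 and 54.7 CPM in Cre-positive libraries, against 57.4, 59.3 and 139 CPM in Cre-negative libraries. Its log2 fold change was -0.99 ± 0.35 (SE; edgeR adjusted p = 0.439), and -0.45 without Cre-negative replicate 3. Psen2, a catalytic subunit of gamma-secretase, the enzyme that makes the next cut in Notch, had a log2 fold change of 0.38 ± 0.20, and Notch2 had 0.20 ± 0.11 (SE). The list had a median log2 fold change of -0.02, against -0.01 over all tested genes.

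Cd9, Cd151 and Cd82 are known for binding integrins. Cd9, abundant on platelets and needed on the egg for fusion with sperm, stood at 6.15, 5.92 and 5.23 CPM in Cre-positive libraries, against 2.82, 13.4 and 5.41 CPM in Cre-negative libraries. The Cre-negative libraries included both the lowest and the highest value, and the log2 fold change of -0.32 ± 0.73 (SE) turned to 0.49 without Cre-negative replicate 2. Cd151, the closest partner of laminin-binding integrins, stood at 2.39, 6.41 and 4.91 CPM in Cre-positive libraries and at 5.07, 4.20 and 5.65 CPM in Cre-negative libraries, which overlapped (log2 fold change -0.12 ± 0.81, and 0.19 without Cre-positive replicate 1). Cd82, described in human cancers as a suppressor of metastasis and in mouse on quiescent blood stem cells, stood at 28.9, 25.1 and 17.9 CPM in Cre-positive libraries and at 23.9, 20.2 and 19.8 CPM in Cre-negative libraries. Its log2 fold change was 0.17 with a 95% interval of -0.49 to 0.84. Neither Cd9, Cd151 nor Cd82 passed (edgeR adjusted p = 0.999, 0.999 and 0.989).

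Of 21 surface partners of tetraspanins, 15 had enough counts to be tested and 0 passed by edgeR, DESeq2 or limma-voom, with 1 at an unadjusted p under 0.05 by edgeR, where 8.23% of all tested genes were. The partners with the smallest p were Itga4 and Kit. Itga4, the alpha chain of the VLA-4 integrin that holds progenitors to the niche, stood at 834, 901 and 873 CPM in Cre-positive libraries, against 906, 989 and 1067 CPM in Cre-negative libraries, with a log2 fold change of -0.18 ± 0.08 (SE; edgeR adjusted p = 0.59). Kit, the stem cell factor receptor, which was also used in the sort, stood at 334, 349 and 355 CPM in Cre-positive libraries and at 375, 385 and 426 CPM in Cre-negative libraries (log2 fold change -0.19 ± 0.09). Itga6, a laminin-binding chain, and Itgb3, a chain of platelet integrins, had log2 fold changes of -0.41 ± 0.23 and -1.77 ± 1.10. The value for Itga6 was 0.01 with effective-length offsets. The list had a median log2 fold change of -0.09.

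Cd63, Cd53 and Cd37 are tetraspanins of granules and leukocyte membranes. Cd63, the marker of late endosomes and of secreted vesicles, stood at 3.94, 2.49 and 5.81 CPM in Cre-positive libraries, against 5.38, 16.7 and 10.6 CPM in Cre-negative libraries. The highest Cre-positive library lay just above the lowest Cre-negative one, and the log2 fold change was -1.41 ± 0.66 (SE), with a 95% interval of -2.90 to 0.07 (edgeR adjusted p = 0.644). A pseudogene, Cd63-ps, had between 0 and 55 reads in the 6 libraries. Cd53, a leukocyte tetraspanin that regulates cell adhesion, stood at 1.64, 1.24 and 5.05 CPM in Cre-positive libraries, against 6.45, 3.71 and 11.5 CPM in Cre-negative libraries, with a log2 fold change of -1.45 ± 0.92 (edgeR adjusted p = 0.831). Its lowest library had 110 reads, close to the 108 reads given above, and its log2 fold change was -2.33 without Cre-positive replicate 3 and -0.94 without Cre-negative replicate 3. The summed neutrophil and monocyte markers and the summed lymphoid markers were also lower in every Cre-positive library than in any Cre-negative one, and their part in the values of Cd63 and Cd53 was not tested. Cd37, which is most abundant on mature B cells, stood at 17.4, 32.3 and 35.5 CPM in Cre-positive libraries and at 23.1, 18.6 and 32.0 CPM in Cre-negative libraries. The groups overlapped, and the log2 fold change of 0.21 ± 0.34 became -0.03 with effective-length offsets and -0.08 on log2(TPM + 1).

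Of 21 genes of endosome and vesicle sorting, 20 were tested and 0 passed by edgeR or limma-voom, with 1 at an unadjusted p under 0.05 by edgeR (8.23% of all tested genes) and 1 called by DESeq2 (3.50% of all genes it tested). That gene was Pdcd6ip, which encodes Alix, an adaptor that loads cargo into vesicles of the late endosome. It stood at 294, 287 and 264 CPM in Cre-positive libraries, against 196, 210.2 and 185 CPM in Cre-negative libraries, and all 3 Cre-positive libraries lay above. Its 1.43-fold difference (log2 fold change 0.52 ± 0.10, SE) had an edgeR adjusted p of 0.136 and a DESeq2 adjusted p of 5.07e-06. Vps4a and Vps4b, paralogous ATPases that disassemble the machinery of vesicle budding, had log2 fold changes of 0.41 ± 0.20 and -0.23 ± 0.14, and Vps4b stood at 0.10 with effective-length offsets and 0.17 on log2(TPM + 1). Hgs, which gathers ubiquitin-tagged cargo on endosomes, had -0.28 ± 0.21. The median of the list was -0.04.

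Tspan3, linked in mouse models to the growth of acute myeloid leukaemia, stood at 17.9, 14.3 and 20.5 CPM in Cre-positive libraries and at 8.37, 23.2 and 20.8 CPM in Cre-negative libraries. Its means of 17.6 ± 3.12 and 17.4 ± 7.94 CPM (SD, n = 3 each) were close, and its log2 fold change of 0.01 had a 95% interval of -0.94 to 0.96.

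Taking the 10 tetraspanins as a list, all of which passed the filter on low counts, 1 passed higher and 0 passed lower by edgeR, and 2 had an unadjusted p under 0.05, where 8.23% of all tested genes did. limma-voom, which called 0.152% of all tested genes and all of those higher, called 1 of the 10, higher. DESeq2, which called 3.50% of the genes it tested (1.81% higher), called 2 of the 10, both higher. A fit with the replicate number as a block, which called 0.427% of all tested genes (0.290% higher), called 2 of the 10, both higher. The groups did not overlap for 2 of the 10, both with Cre-positive above, where 15.2% of all tested genes did not overlap in either direction (7.53% with Cre-positive above and 7.66% with it below). The median log2 fold change was 0.08, with 6 positive and 4 negative. Among 21 other matched tetraspanins, 12 were tested and 0 passed by edgeR, DESeq2 or limma-voom, with 1 at an unadjusted p under 0.05 by edgeR, against the same 8.23%, and a median of -0.21. The 9 that were not tested (Tspan1, Tspan7, Tspan10, Tspan11, Tspan17, Upk1a, Upk1b, Prph2 and Rom1) had 0 reads in all 6 libraries. In the shallowest library 3 reads, the most that a count of 0 allows for counting error, would be 0.0335 CPM. That limit covers reads and not captured molecules, a few of which can give totals near the 108 reads stated above.

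The other tetraspanins with the smallest p were Tspan32, Tspan5, Tspan18 and Tspan9. Tspan32, a blood-restricted member also called Tssc6, stood at 54.9, 90.9 and 80.1 CPM in Cre-positive libraries, against 63.5, 39.2 and 45.9 CPM in Cre-negative libraries, with a log2 fold change of 0.60 ± 0.25 (SE; edgeR adjusted p = 0.547). Tspan5, a further TspanC8 gene, stood at 8.76, 9.59 and 7.81 CPM in Cre-positive libraries, against 13.6, 14.0 and 15.9 CPM in Cre-negative libraries. The groups of Tspan5 did not overlap in CPM, but its log2 fold change of -0.73 ± 0.39 (edgeR adjusted p = 0.738) was 0.32 with effective-length offsets and 0.04 on log2(TPM + 1). Tspan18 had 124, 0 and 29 reads in Cre-positive libraries and 235, 689 and 254 reads in Cre-negative libraries. Tspan9 had 56, 0 and 0 reads in Cre-positive libraries and 131, 264 and 200 reads in Cre-negative libraries, so both rest on very few molecules.

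**Figure D3:**
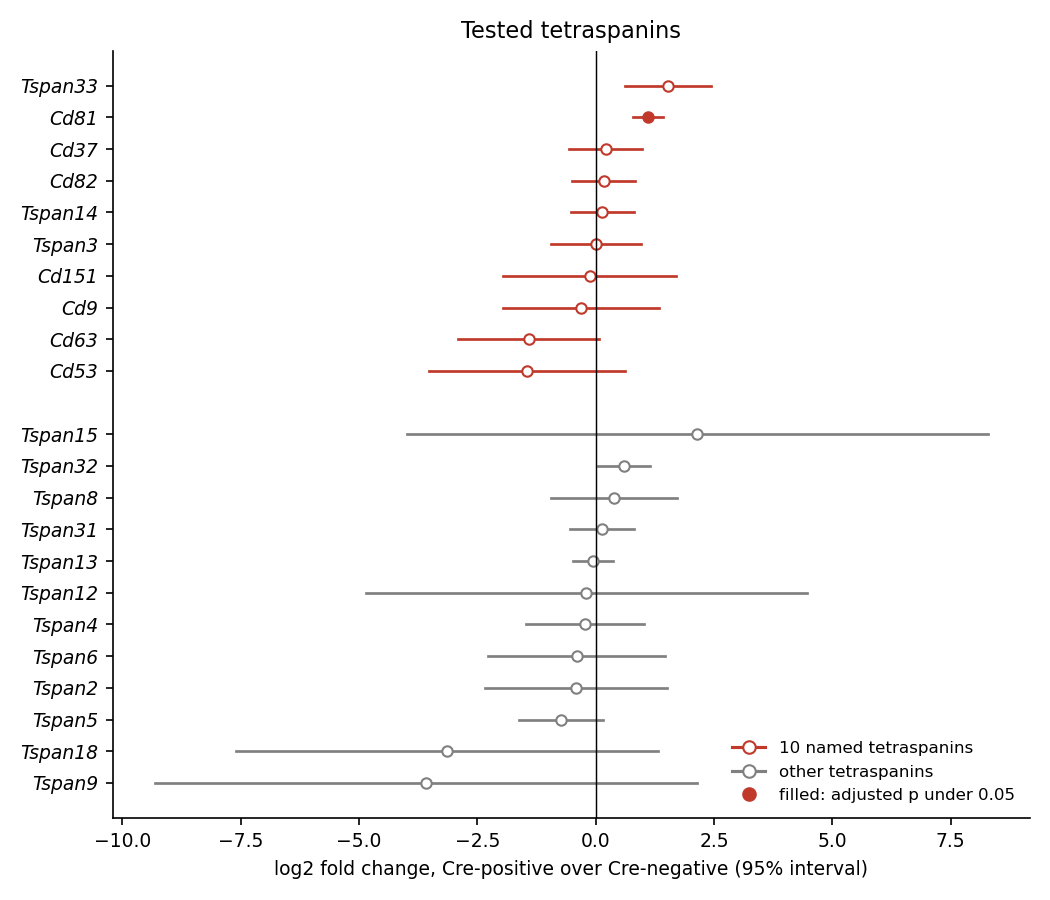
Log2 fold change, Cre-positive over Cre-negative, with its 95% interval for the 10 named tetraspanins (red) and the 12 other tested tetraspanins (grey). A filled point marks an edgeR adjusted p under 0.05, which Cd81 alone has among these 22 genes.

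**Figure D4:**
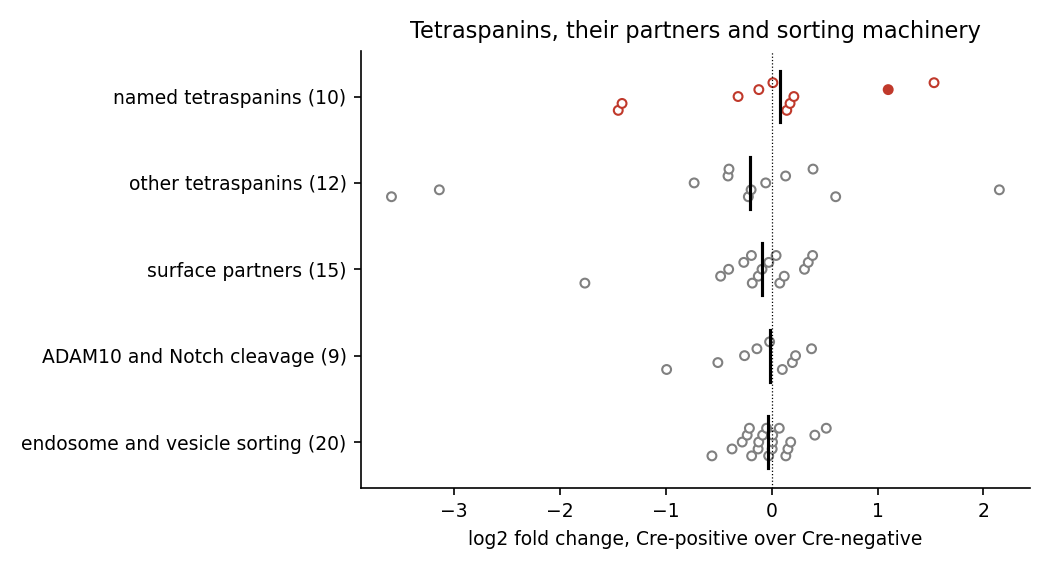
Log2 fold change of each tested gene in the named tetraspanins and the lists set beside them, with the number tested in parentheses, a black bar at each median and a filled point for an edgeR adjusted p under 0.05. Medians lie between -0.21 and 0.08.

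A further readout in the deposited tables was the mean transcript length of each gene, weighted by the share of each isoform in that library. Of the 9 tetraspanins with more than 1 listed transcript, 3 had lengths that did not overlap between the groups, where 8.29% of the 10636 such genes tested did not overlap in either direction (4.06% with Cre-positive above and 4.23% with it below). With 3 libraries against 3 an exact permutation test cannot give a p under 0.1, so these are descriptions. The mean length of Cd151 was 1619, 1535 and 1609 bases in Cre-positive libraries, against 837, 1010 and 632 bases in Cre-negative libraries. The Cre-positive libraries lay close together and far above the others. Its TPM, which divides by that length, was 2.02, 5.94 and 4.28 in Cre-positive libraries and 11.1, 6.81 and 19.9 in Cre-negative libraries, and did not overlap, although its CPM did. In TPM the groups did not overlap for 13.5% of all tested genes, 5.87% with Cre-positive above and 7.67% with it below. With effective-length offsets the log2 fold change of Cd151 was -1.59 (edgeR adjusted p = 0.835). Cd151 had between 297 and 702 reads per library, so its isoform shares rest on few molecules.

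The length of Cd63 was 902, 882 and 781 bases in Cre-positive libraries and 1063 bases in each Cre-negative library. Cd63 had between 220 and 1746 reads per library, so its isoform shares may also rest on few molecules. For Cd37 it was 1360, 1363 and 1382 bases in Cre-positive libraries, against 1020, 1329 and 1330 bases in Cre-negative libraries. The gap between the groups, from 1330 to 1360 bases, was small beside the spread within the Cre-negative libraries. Cd81, with 6 listed transcripts, had 917, 749 and 811 bases in Cre-positive libraries and 788, 926 and 972 bases in Cre-negative libraries, which overlapped. Tspan33 lengths overlapped as well, between 1994 and 2266 bases, and Tspan14 stood at 2475 bases in all 6 libraries.

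**Figure D5:**
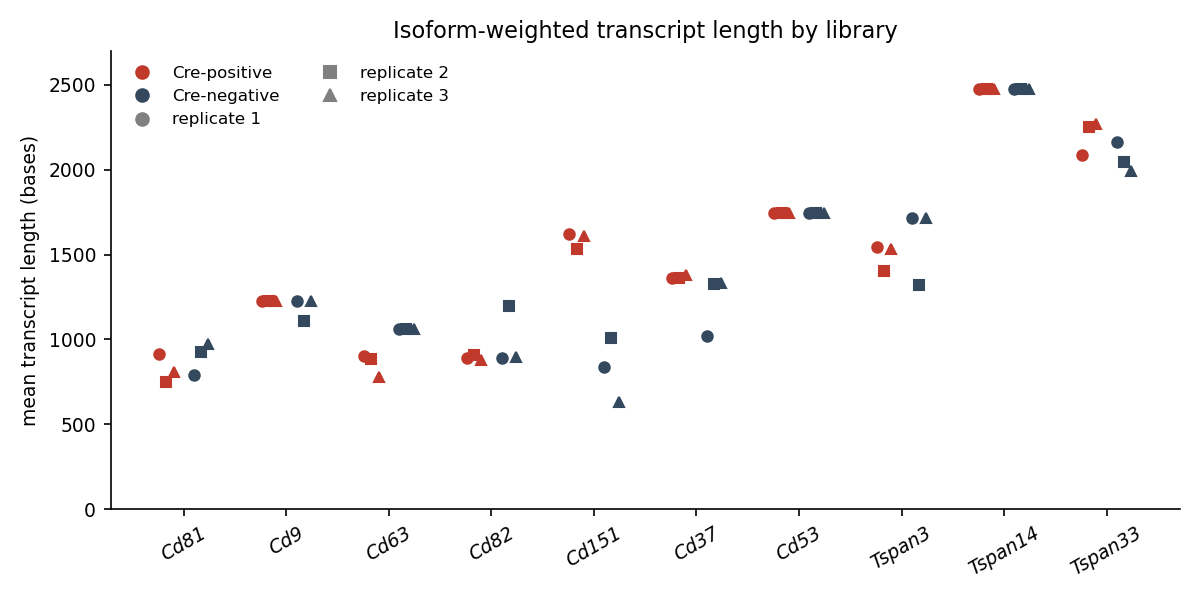
Mean transcript length in bases, weighted by isoform share, of each tetraspanin in the Cre-positive (red, left) and Cre-negative (dark, right) libraries, with a marker shape for each replicate number. The groups do not overlap for Cd151, Cd63 and Cd37, and Cd53 has a single listed transcript.

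The genes whose log2 CPM over the 6 libraries followed that of Cd81 most closely, among 8337 other tested genes that averaged 1000 or more counts, were Ccng1, Plpbp, Exoc4, Gm8730 and Tcf25, with Pearson correlations between 0.986 and 0.992. The 6 libraries fall into the study's groups, so a gene that differs between the groups with little spread within them ranks high, and no p is given. Ccng1, which encodes cyclin G1, and Exoc4, a subunit of the exocyst, differed more between the groups, with log2 fold changes of 2.37 and 1.42 (edgeR adjusted p = 0.000218 and 0.00282). The Exoc4 call was lost with effective-length offsets (0.87, edgeR adjusted p = 0.54) and on log2(TPM + 1) (0.92, limma adjusted p = 0.55). Plpbp, which binds the vitamin B6 coenzyme, the gene model Gm8730 and the transcription factor gene Tcf25 had log2 fold changes of 0.56, 0.26 and 0.24, and did not pass by edgeR. DESeq2 called Plpbp (adjusted p = 0.0478), whose log2 fold change was 0.87 with effective-length offsets. That of Tcf25 was 3.03 with effective-length offsets and 1.87 on log2(TPM + 1), and passed in neither (edgeR adjusted p = 0.443, limma adjusted p = 0.687).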

How the data were processed

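Total RNA of sorted BFU-E was made into libraries with Takara's SMARTer Stranded Pico kit, per the labels' protocols. The submitters' processing notes name STAR 2.5.3a, RSEM 1.3.0 and GRCm39 (mm39). Neither a strand setting nor an annotation release is given in the sources used here. The authors deposited, per gene and library, an expected count (RSEM's estimated count, 2.64% of values not whole), TPM and FPKM, and the mean and effective transcript length. FPKM as deposited entered no result.

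Identifiers without version matched a symbol for 52081 of 55359 entries. Expected counts were rounded. Of all entries, 13117 passed edgeR's filterByExpr. Tests of Cre-positive over Cre-negative used edgeR 4.0.16 (glmQLFit, glmQLFTest; R 4.3.3) with TMM factors (0.988 to 1.017), Benjamini-Hochberg adjustment over all 13117 genes and a threshold of 0.05, after checks on simulated data. SEs are the log2 fold change over the square root of F, and 95% intervals use the same SE. CPM uses TMM-scaled library sizes, and folds are ratios of mean CPM. The common biological coefficient of variation was 85.4%. Floors and counting limits cover reads, which were not counted by molecule.

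The tetraspanins and gene lists were chosen with earlier results of these data known. Named were all 10 genes, Exosc3, the 4 genes with the smallest p of each list set beside them, the 2 most abundant genes of each list of other cells' markers, and the 5 genes most like Cd81 (Pearson, log2 CPM, prior count 2). Some genes that this rule names are not reported here. Other genes were named after their values were seen. The labels do not tie a library to a litter or say that each is a separate embryo, so p-values measure only the spread between these samples, which may be technical. Coding sequences and gene order are from GENCODE M21, which is on GRCm38, so no coordinates are given. Alternatives were DESeq2 1.42.0, its size factors in edgeR, limma-voom and limma on log2(TPM + 1) (limma 3.58.1), no filter, effective-length offsets, the replicate number as a block and leaving out each library. A filter at a mean of 1000 counts was chosen after seeing the data.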

Additional observations from a re-analysis of the deposited data

How the results depend on the processing

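Of the 10 tetraspanins, 1 passed in the reported fit, 2 with DESeq2, 2 with the replicate number as a block (Cd81 and Tspan33), 0 with effective-length offsets, 0 on log2(TPM + 1), and 0 to 0 without each library in turn. Fewer samples enter the last of these, and for the others the cause was not tested. Over all genes 16 passed, against 453 with DESeq2, 39 with no filter, 6 with effective-length offsets, 6 on log2(TPM + 1), 56 with the replicate block, 84 when a mean of 1000 counts was required (chosen after seeing the data), and 7 to 16 without each library. In the endosome list DESeq2 and that last filter each called 1 gene, Pdcd6ip, where the reported fit called 0. Counts for the other tetraspanins, surface partners and ADAM10 and Notch genes were 0 under every alternative run. Directions turned for Cd37 (-0.03 with effective-length offsets, -0.082 on log2(TPM + 1)), Tspan5 (0.32 and 0.039), Vps4b (0.10 and 0.17) and Itga6 (0.006 with offsets). Without each library the log2 fold change ranged from -0.70 to 0.49 for Cd9, from -0.45 to 0.19 for Cd151 and from -0.32 to 0.27 for Tspan3. The 441 values of 32 named genes under the alternatives kept their direction and their side of the threshold in 413 cases. Most of these genes were not called in the reported fit, and for them the same side means only staying uncalled. Cd81 kept its call in 6 of 14 alternatives and lost it in 8.

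The replicate numbers were not treated as pairs, and the labels do not tie a library to a litter. Deviations of same-numbered libraries from their group means correlated at 0.03, 0.05 and 0.07. Those of differently numbered libraries correlated between -0.0545 and -0.0047, so each library correlated best with its own number. Deviations within a group cancel out for each gene, so the positive same-number values and the negative others are not independent of each other. Taken over all tested genes, these small values cannot decide whether the numbers mark pairs. With the replicate block Cd81 had a log2 fold change of 1.11 (edgeR adjusted p = 0.0196) and Tspan33 of 1.52 (0.0257). Low counts limit Cd9, Cd63, Cd151 and Cd53, whose lowest libraries held fewer than 5 times 108 reads. Such totals may rest on few captured molecules.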

Other observations

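Some of the tetraspanin genes lie beside another tetraspanin gene. In GENCODE M21 the next coding gene to Cd81 on chromosome 7 is Tspan32, the next to Cd82 on chromosome 2 is Tspan18, and Tspan4 is the second coding gene from Cd151 on chromosome 7. Cd81 and Tspan32 both had positive log2 fold changes (1.10 ± 0.14 and 0.60 ± 0.25, SE), of which Cd81 passed. Cd82 and Tspan18 had 0.17 ± 0.30 and -3.14 ± 1.98, and Cd151 and Tspan4 had -0.12 ± 0.81 and -0.22 ± 0.55. Tssc4, on the far side of Cd81, had 0.11 ± 0.53.

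Of 40 coding genes within 2 positions of the 10 tetraspanins, 26 were tested and 0 passed by edgeR, with 5 at an unadjusted p under 0.05, where 8.23% of all tested genes were. Peak1, a pseudokinase gene beside Tspan3, stood at 163, 177 and 163 CPM in Cre-positive libraries, against 94.4, 79.5 and 127 CPM in Cre-negative libraries (log2 fold change 0.74 ± 0.17, edgeR adjusted p = 0.214). Irf5, an interferon regulatory factor gene near Tspan33, had 229, 0 and 63 reads in Cre-positive libraries and 758, 1382 and 3206 reads in Cre-negative libraries (log2 fold change -4.29 ± 1.40, edgeR adjusted p = 0.389). These neighbours were chosen after the values were seen.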
